A study of Mus musculus with 18 samples.

Results

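Open chromatin of lung endothelial cells (ECs) was compared between 18-month-old and 2-month-old mice that had received intratracheal PBS as the sham of a bleomycin experiment. These are 9 of the 18 samples measured: 5 from young mice (Young Sham) and 4 from aged mice (Aged Sham), each from 1 mouse. Both groups were Col1α1-GFP transgenic mice of the FVB strain, in which collagen-producing cells carry the green reporter, and lungs were taken 30 days after delivery. The study used female and male mice of this line, and the sex of each mouse is not among the sample labels used here. ECs were sorted as CD31+ cells free of CD45, EpCAM and GFP and profiled by ATAC-seq (assay for transposase-accessible chromatin), in which a transposase cuts accessible DNA and inserts sequencing adapters there. The other 9 samples, 4 from young (Young Bleo) and 5 from aged mice (Aged Bleo) of the same line and ages that had received bleomycin, entered no sham test, but their peaks helped to define the regions and the shortest list, an Aged Bleo one, set the length of the cut lists. Regions were defined by merging the peaks of all 18 lists and keeping those with a peak in at least 2 lists, which left 47338 regions.

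Accessible regions are promoters at gene starts and distal elements, such as enhancers, to which transcription factors bind. In ECs the ETS family, which includes ERG, SOX, GATA and forkhead factors hold many vessel genes open, whereas AP-1 and NF-kB are activated by stress and inflammatory signals. Capillaries of the lung exchange gas and fluid, and their ECs hold tight junctions, a basement membrane and receptors for VEGF, angiopoietin and Notch signals, and they supply platelet-derived growth factor to mural cells.

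The sequences of 9 regions that the results below turn on are shown first, each as the plus strand of mm10 around its strongest peak summit. They are RefSeq GRCm38.p6 sequence of the C57BL/6J reference and not of the FVB mice. Windows span 200 bases, except the Pitpnc1 promoter region, of which 127 bases outside annotated exons are given. The letters searched, on either strand, were those of 12 motifs, and capitals mark the matches named here, while other matches stay in lower case. A match is a run of letters and not a measured binding site. The first 4 regions ranked lower in Aged Sham. Capitals mark CAGGAAG (ETS, ERG core, in 19.8% of all regions) in the Sel1l2 and Syt6 windows, AACAAT (SOX, 12.7%) in that of Syt6, GGAATG (TEAD, 10.6%) in that of Id3 and TGTTTAC (forkhead, 4.37%) in that of Tpra1:
Sel1l2 intron region, chr2:140249912-140250111: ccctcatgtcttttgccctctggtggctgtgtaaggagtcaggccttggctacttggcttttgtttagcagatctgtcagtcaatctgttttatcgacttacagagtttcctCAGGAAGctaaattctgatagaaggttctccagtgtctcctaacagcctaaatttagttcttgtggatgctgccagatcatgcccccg
Syt6 upstream region, chr3:103480736-103480935: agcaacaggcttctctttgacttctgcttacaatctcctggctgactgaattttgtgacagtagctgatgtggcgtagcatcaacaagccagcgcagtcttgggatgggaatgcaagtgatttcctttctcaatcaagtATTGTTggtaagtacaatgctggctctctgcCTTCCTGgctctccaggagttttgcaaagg
Id3 upstream region, chr4:136136328-136136527: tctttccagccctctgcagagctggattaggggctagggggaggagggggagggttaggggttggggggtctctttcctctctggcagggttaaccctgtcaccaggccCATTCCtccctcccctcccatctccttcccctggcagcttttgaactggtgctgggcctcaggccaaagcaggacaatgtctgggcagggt
Tpra1 distal region, chr6:89037509-89037708: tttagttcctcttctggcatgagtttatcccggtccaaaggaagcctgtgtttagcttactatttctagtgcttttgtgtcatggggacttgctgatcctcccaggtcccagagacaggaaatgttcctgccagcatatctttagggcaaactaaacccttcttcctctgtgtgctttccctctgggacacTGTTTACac

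The next 5 regions ranked higher in Aged Sham. The Prr9 window held none of the 12 motifs searched, and those of Pitpnc1, Gm15501 and Bid each held TGANTCA (AP-1, 8.55% of all regions). The regions shown were picked by hand, so how many of them hold a motif is no result. Capitals also mark the SOX letters AACAAT and the GATA letters AGATAA (9.73%) at Gm5885, CAGGAAG at Pitpnc1 and GGGTGTG (KLF, 7.42%) at Gm15501:
Prr9 downstream region, chr3:92120439-92120638: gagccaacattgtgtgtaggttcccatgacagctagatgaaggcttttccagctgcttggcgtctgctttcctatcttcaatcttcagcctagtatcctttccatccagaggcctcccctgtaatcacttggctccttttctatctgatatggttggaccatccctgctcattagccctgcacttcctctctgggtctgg
Gm5885 distal region, chr6:133597052-133597251: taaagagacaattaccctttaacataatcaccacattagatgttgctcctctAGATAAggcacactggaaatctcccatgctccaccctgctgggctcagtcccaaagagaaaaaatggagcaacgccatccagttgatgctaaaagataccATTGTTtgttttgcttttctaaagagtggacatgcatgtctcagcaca
Pitpnc1 promoter region, chr11:107428123-107428249: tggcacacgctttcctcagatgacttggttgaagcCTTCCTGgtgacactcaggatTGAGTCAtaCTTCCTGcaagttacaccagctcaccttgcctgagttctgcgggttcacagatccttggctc
Gm15501 distal region, chr7:93424910-93425109: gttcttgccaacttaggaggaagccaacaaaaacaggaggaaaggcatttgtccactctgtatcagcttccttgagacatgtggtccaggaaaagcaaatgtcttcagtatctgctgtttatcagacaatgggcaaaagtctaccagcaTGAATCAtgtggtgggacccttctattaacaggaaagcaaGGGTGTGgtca
Bid region, chr6:120927810-120928009: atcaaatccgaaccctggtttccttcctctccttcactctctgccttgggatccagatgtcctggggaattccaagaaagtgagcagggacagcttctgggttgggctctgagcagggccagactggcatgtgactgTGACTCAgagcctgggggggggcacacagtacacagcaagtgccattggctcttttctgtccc

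The lists differed in length. Young Sham lists held 30073 to 38747 peaks and Aged Sham lists 25793 to 32220, and the background coverage implied by the fold enrichment and p of their peaks was at least 1.26 to 1.78 fragments in Young Sham and 1.02 to 1.44 in Aged Sham. Each list was therefore used whole and again cut to its strongest peaks, as many as the shortest list of the series held (called the strongest peaks from here on). By the lane number in the deposited names, all Young Sham libraries ran on lane 8, Aged Sham replicates 1 to 3 on lane 7 and replicate 4 on lane 6, so in sham lungs the lane and the age of the mice cannot be told apart. The bleomycin libraries ran on the same lanes in another arrangement. Young Bleo replicates 1 to 3 were on lane 7, replicate 4 on lane 8 and all Aged Bleo on lane 6. Lane 7 therefore held Aged Sham and Young Bleo libraries. Of 15 pan-endothelial genes, 14 to 15 carried a promoter peak in each Young Sham list and 13 to 14 in each Aged Sham list, with summed fold enrichment of 138 to 174 in Young Sham and 136 to 157 in Aged Sham. No promoter of the 9 leukocyte genes (Ptprc, Cd3e and Spi1 among them) or of the 3 mesothelial genes carried a peak in any sham list. Of the epithelial, fibroblast and mural lists, only Foxj1 (1 of 8), Pdgfra (1 of 6) and Myh11 (1 of 6) did, in every list of both ages, while Epcam, Col1a1 and Acta2 had none. Bulk samples cannot separate fewer cells of 1 EC type from less open chromatin per cell.

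First, presence of a peak was compared by Fisher's exact test, 2-sided, on the number of lists with a peak. With all peaks, 2321 regions (4.90% of those tested) had fewer peaks in Aged Sham and 125 (0.264%) had more, at an unadjusted p of at most 0.05. With the strongest peaks the split was 434 lower (0.917%) and 384 higher (0.811%). Whole lists were shorter in Aged Sham. At equal length the 2 counts were close where any overlap counted as a peak, but stood at 688 lower and 246 higher where peaks had to cover at least 50% of a region. None passed Benjamini-Hochberg adjustment, since 0.00794 is the smallest p that 5 against 4 lists allow. Second, the rank of each peak's deposited -log10 p within its list was compared with limma, as a percentile over all regions in which uncalled regions share their mean rank. At an adjusted p of at most 0.05, 431 regions (0.910%) ranked lower and 151 (0.319%) higher in Aged Sham with all peaks, and 182 (0.384%) lower and 132 (0.279%) higher with the strongest peaks. Rank ranges of the 2 ages did not overlap at 3.94% of regions on the lower and 3.22% on the higher side.

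The rules chose partly different regions and never in opposite directions. Both presence rules called 50 regions (0.106%) less and 20 (0.0422%) more accessible, both rank rules called 53 (0.112%) and 64 (0.135%), and all 4 rules called 6 and 7. Of the regions called by both rank rules, 45 of 53 lower and 52 of 64 higher ones carried a peak in all 9 sham lists, against 43.4% of all regions. A call with the strongest peaks needs strong peaks, so the choice itself favours such regions. Where all 9 lists held a peak, the difference was in rank and not in presence. Of the 132 regions called higher in the strongest-peak ranks, 51 (38.6%) were promoters, and their median distance to a transcription start site (TSS) was 1.27 kb. Of the 182 lower ones, 49 (26.9%) were promoters and the median distance was 16.8 kb. Among the 27977 regions with a strongest peak in at least 1 sham list 32.0% were promoters, and among the 15597 with one in all 9 lists 49.1%, with median distances of 7.75 and 0.198 kb, so the share in the higher regions lay between these backgrounds. Median GC content was 56.9% in the higher and 52.7% in the lower regions, against 54.5% and 59.7% in the same backgrounds.

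Among regions called by both presence rules, the largest losses were at Young Sham peaks that most or all Aged Sham lists lacked. Those rules require such a split, so the pattern follows from the choice. An intron of Sel1l2 (chr2:140249826-140250196, nearest coding TSS Ndufaf5, 79.4 kb away) had fold enrichment over background of 13.6, 9.28, 9.35, 9.92 and 9.31 in Young Sham and no peak in any of the 4 Aged Sham lists. Its mean rank percentile was 61.1 ± 3.88 (SD, n = 5) in Young Sham and 20.4 ± 3.56 (SD, n = 4), the shared rank of uncalled regions, in Aged Sham, a difference of -40.74 ± 2.47 (SE; limma adjusted p = 0.000588). This peak was also absent from all 9 bleomycin lists, and so was that in the untranslated part of Cyb5b (chr8:107185076-107185442), which encodes an outer mitochondrial membrane cytochrome, with 10.9, 10.4, 8.27, 9.92 and 7.19 in Young Sham alone. In all, 39 regions carried a peak in all 5 Young Sham lists and in none of the other 13.

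Promoters were among the lost peaks. That of Ildr2, an immunoglobulin-like receptor gene (chr1:166253911-166254445), had fold enrichment of 9.87, 10.7, 8.6, 9.92 and 10.2 in Young Sham and no peak in Aged Sham, a rank difference of -40.29 ± 2.28 (SE; adjusted p = 0.000522). The promoter of Ppp1r9a, which encodes the actin-binding scaffold neurabin (chr6:4902739-4903883), gave 9.54, 7.82, 6.62, 8.86 and 6.78 against no peak (-39.65 ± 2.27; adjusted p = 0.000522). Just inside Itga4, the integrin subunit that binds Vcam1 and fibronectin (chr2:79255171-79256027), Young Sham lists held 7.79 to 9.88 and Aged Sham lists nothing. The rank difference was -43.11 ± 3.77 with all peaks (adjusted p = 0.00237) and -30.65 ± 8.52 with the strongest peaks (adjusted p = 0.203), where 1 Young Sham list no longer held it. Upstream of Syt6 (chr3:103480590-103481266, 94.3 kb from the TSS), 13.9, 9.40, 9.68, 12.1 and 8.46 stood against 5.32 in Aged Sham replicate 4 and no peak in the other 3. The difference was -37.84 ± 4.84 (adjusted p = 0.0109). The ranges of the 2 ages did not overlap at any of these regions with all peaks.

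Of 1499 regions within 100 kb of the genes of the EC and pathway lists, both presence rules called 4 lower (0.267%) and 0 higher, against 0.0963% lower and 0.0395% higher of all 40503 regions that near to a gene. In Nckap5, a gene of the aerocyte list (aerocytes are the large gas-exchange capillary cells), an intron region (chr1:126451460-126451897) had 5.92 to 11 in Young Sham and no Aged Sham peak (-36.76 ± 3.64; adjusted p = 0.00342), and with the strongest peaks the difference was -25.5 (adjusted p = 0.203). Bmx, a kinase of arterial ECs, gave 6.77 to 12.4 in an intron (chrX:164233364-164233803) against 4.50 in 1 Aged Sham list and no peak in 3 (-35.71 ± 4.03; adjusted p = 0.00621), and -27.87 ± 7.62 with the strongest peaks (adjusted p = 0.203). Beside the Sox17 promoter (chr1:4496358-4496767), a gene that specifies arterial ECs, 3.93 to 4.70 stood against 3.68 in 1 Aged Sham list. Its difference of -28.97 ± 6.58 did not pass (adjusted p = 0.0917), nor did the one upstream of Ocln, the tight-junction gene occludin (-27.71 ± 6.42; adjusted p = 0.0951), where Aged Sham replicate 4 held 6.55, within the 5.92 to 10.2 of Young Sham. At the last 3 genes the peak that remained was in Aged Sham replicate 4, the library on lane 6. Without it, Sox17 and Ocln passed (adjusted p = 0.00172 and 0.00908).

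**Figure D1:**
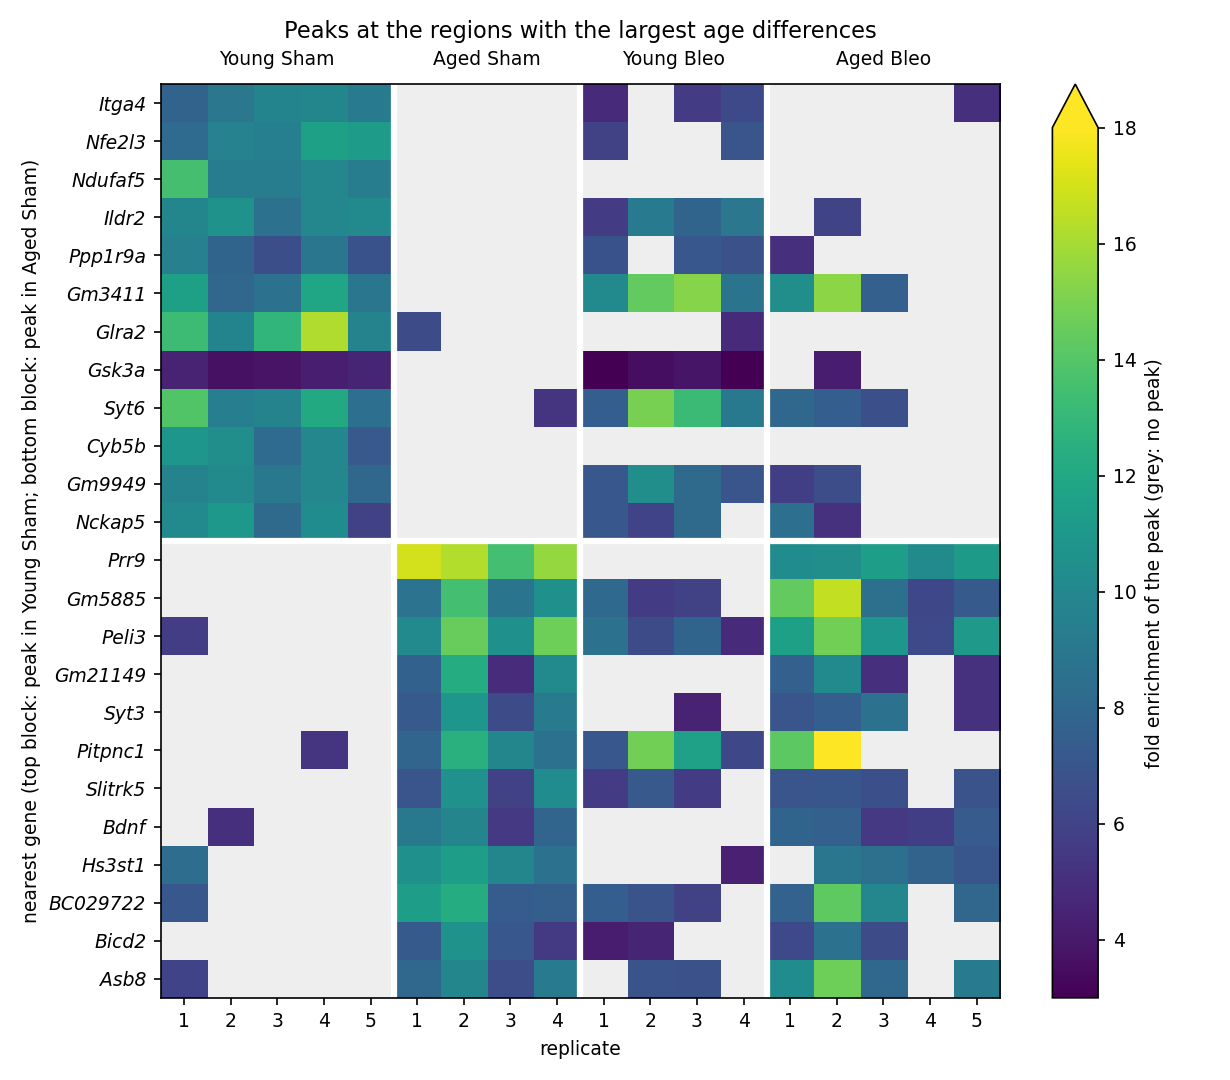
Fold enrichment over background of the peak at the 12 regions with the largest loss and the 12 with the largest gain of rank in Aged Sham, among regions called by both presence rules; rows are named by nearest gene, columns are the 18 lists by group, and grey marks no peak. Ndufaf5 (the Sel1l2 intron) and Cyb5b are coloured in Young Sham alone, while Prr9 is coloured in all 9 lists from aged mice and grey in all 9 from young mice.

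Prr9 is a proline-rich gene of the epidermal differentiation cluster. The clearest gain among regions called by both presence rules lay 3.41 kb from its TSS (chr3:92120273-92120795). Fold enrichment was 17, 16.3, 13.5 and 15.6 in Aged Sham, and none of the 5 Young Sham lists held a peak. The mean rank percentile was 83.9 ± 3.03 (SD, n = 4) against 14 ± 3.33 (SD, n = 5), a difference of 69.92 ± 2.15 (SE; adjusted p = 2.75e-05). All 5 Aged Bleo and none of the 4 Young Bleo lists carried the peak. Only 2 regions of the 47338 had a peak in all 9 aged lists and in no young list, and 10 had one in all 9 young lists and in no aged list.

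Other gains were of the same kind. At Gm5885 (chr6:133596910-133597386) the 4 Aged Sham lists gave 8.74, 13.5, 8.78 and 10.5 against no Young Sham peak (54.01 ± 2.18; adjusted p = 0.000122). The promoter of Peli3, a ubiquitin ligase of innate immune signalling (chr19:4942809-4943372), gave 10.1, 14.5, 10.5 and 14.7 in Aged Sham, and 5.74 in Young Sham replicate 1 alone (53.53 ± 4.05; adjusted p = 0.00137). An internal promoter of Pitpnc1, a phosphatidylinositol transfer protein gene (chr11:107427994-107428429), gave 7.92, 12.5, 9.86 and 8.59 against 5.34 in 1 Young Sham list (46.15 ± 4.44; adjusted p = 0.00288). Inside Bdnf, the neurotrophin gene, 9.06, 9.82, 5.47 and 7.87 stood against 5.06 in Young Sham replicate 2 (44.31 ± 4.43; adjusted p = 0.0035), a call lost with the strongest peaks (adjusted p = 0.203). Upstream of Tnfaip3, which encodes the NF-kB inhibitor A20 (chr10:19043914-19044261), Aged Sham lists held 10.4, 12, 9.41 and 8.18, and Young Sham replicates 2 and 4 held 5.79 and 5.34 (42.64 ± 5.21; adjusted p = 0.00926). In each of these 5 the lowest Aged Sham value was above the highest Young Sham value. Gm3411 and Gm21149, which also stood among the 24 extreme regions, belong to predicted gene families, where reads from near-identical copies may be shared.

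Among regions called by both rank rules with a peak among the strongest of all 9 sham lists, the promoter of Slit2, a guidance ligand for Robo receptors (chr5:47982841-47983512), fell most in rank. Its percentile was 86.1, 86.2, 87.5, 84.5 and 86.0 in Young Sham and 74.6, 63.6, 67.4 and 66.6 in Aged Sham, a difference of -18.03 ± 2.12 (SE; adjusted p = 0.0077). A region 7.43 kb upstream of Id3, an inhibitor of helix-loop-helix factors and a BMP target (chr4:136136106-136136686), ranked at 81.2, 79.3, 78.6, 78.1 and 79 against 70.9, 68.3, 66.2 and 61.6 (-12.46 ± 1.88; adjusted p = 0.0215). Beyond Pdgfa, a platelet-derived growth factor ligand (chr5:138952839-138953392), ranks were 78.9 to 84.4 against 69.8 to 73.1 (-9.98 ± 1.49; adjusted p = 0.0204). The ages did not overlap at these 3 regions. Distal regions nearest to Rgs18 (-15.67 ± 1.91; adjusted p = 0.00912), Efnb2 (-15.69 ± 2.09; adjusted p = 0.0128) and Tpra1 (-11.96 ± 1.14; adjusted p = 0.00281) also fell. The Efnb2 one lies 1600.0 kb away, so its name is only that of the nearest gene. Id3 lost its call without Young Sham replicate 1 or 2 or Aged Sham replicate 3 (adjusted p = 0.055, 0.0568 and 0.0567), and Pdgfa without Young Sham replicate 1 or Aged Sham replicate 1 or 3 (0.0527, 0.0569 and 0.0546).

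Regions that were open at both ages and ranked higher in Aged Sham included a distal one nearest to Gm15501 (chr7:93424695-93425281), at 58.7, 61.7, 66.4, 69.6 and 66.4 in Young Sham and 85.9, 92.2, 82.1 and 87.0 in Aged Sham (22.26 ± 2.76; adjusted p = 0.00996). At 44.9 kb upstream of Col18a1, the basement membrane collagen from which endostatin is cut (chr10:77211083-77211842), ranks rose from 62.5, 65.8, 65.8, 62.8 and 62.3 to 73.9, 79.8, 80.2 and 75.3 (13.50 ± 1.76; adjusted p = 0.0117). Near Bid, a pro-apoptotic BCL2-family gene, the difference was 14.08 ± 2.05 (adjusted p = 0.0189), and in an intron of Trp53, the p53 gene (chr11:69581192-69581708), 7.86 ± 1.40 (adjusted p = 0.0422). An intron of the growth factor receptor gene Fgfr3 (chr5:33731006-33731476) rose from 48.3, 39.6, 38.4, 51.3 and 51.5 to 64.3, 66.9, 73.4 and 66.9 (22.07 ± 3.47; adjusted p = 0.0258). None of these overlapped between ages. Leaving out any 1 list took Trp53 above the threshold, to an adjusted p of 0.0502 to 0.0937. Bid lost its call without Young Sham replicate 1 or 2 or Aged Sham replicate 2 (0.0501 to 0.0504), and Fgfr3 without Young Sham replicate 1 or 2 or Aged Sham replicate 2, 3 or 4 (0.0508 to 0.0604).

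**Figure D2:**
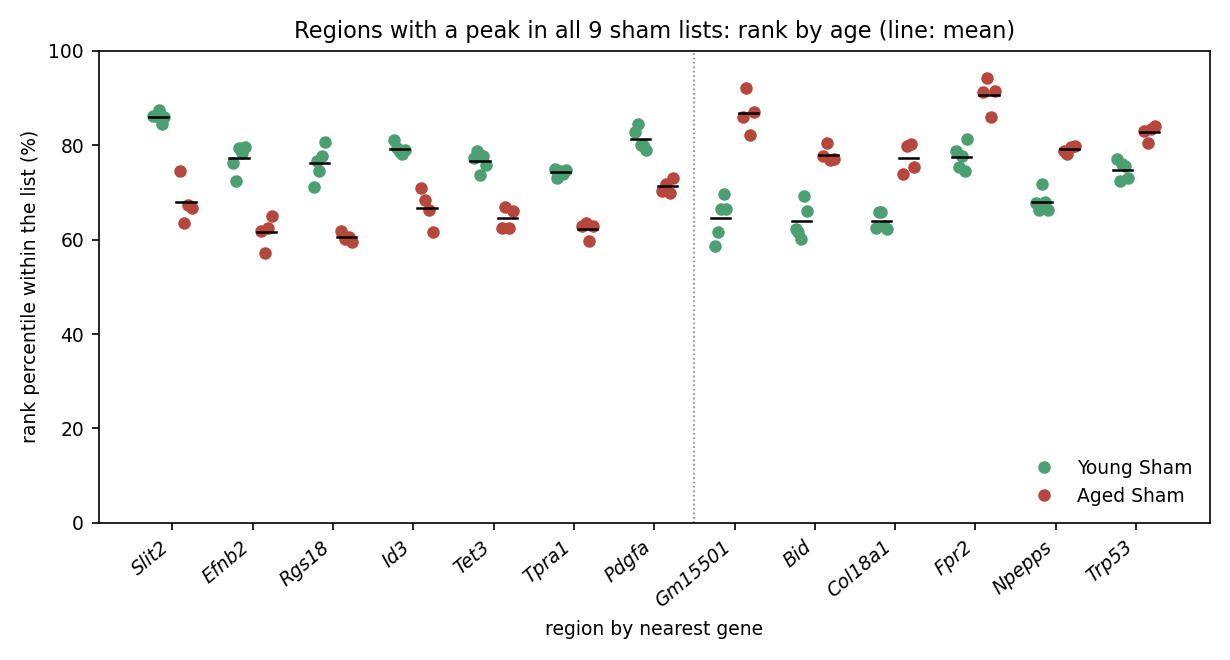
Rank percentile within each list (100 is the strongest) of 13 regions with a peak in all 9 sham lists, named by nearest gene; each point is 1 list and the line is the group mean. The 7 regions left of the dotted line sit lower in Aged Sham, as Slit2 from 84.5 and above to 74.6 and below, and the 6 to its right sit higher.

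The 5 promoters with the smallest limma p in the strongest-peak ranks were taken in each direction. Kcnip3, a calcium-binding repressor (chr2:127521933-127522409), rose from 52.3, 49.0, 48.6, 47.9 and 50.3 to 69.7, 67.8, 67.9 and 71.4 with all peaks (19.54 ± 1.35; adjusted p = 0.000996). Mical1, an actin-oxidising enzyme, rose by 19.23, from 43.9 ± 2.58 (SD, n = 5) to 63.2 ± 1.93 (SD, n = 4; limma adjusted p = 0.00224). Ptprr, a tyrosine phosphatase, and Jade2 passed in the strongest-peak ranks (adjusted p = 1.41e-07 and 1.57e-07) and not with all peaks (0.0853 and 0.124). Both had a peak in all 9 whole lists, and only the Aged Sham peaks stood among the strongest. Young Sham ranks there were the shared rank of uncalled regions (27.92 to 27.95 to 28.09 as lowest, median and highest), which has almost no spread between lists. On the lower side Rnasek and Col25a1 passed in the strongest-peak ranks alone (adjusted p = 1.66e-05 and 5.55e-05, against 0.103 and 0.0617 with all peaks). With all peaks Ptprr passed without Young Sham replicate 1 (0.02), Rnasek without Aged Sham replicate 4 (0.0221) and Col25a1 without Aged Sham replicate 3 (0.01).

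By gene, clusters of lower regions stood around Ets1, an ETS factor gene, where 6 of 40 nearest regions had an unadjusted limma p of at most 0.05 in the strongest-peak ranks in the lower direction and 0 in the higher. Tpra1 had 6 of 15 lower and 1 higher, and Frmd4a 6 of 33 and 0. On the higher side Sfi1 had 7 of 26, Pitpnc1 6 of 18, and Plec, which links the cytoskeleton to junctions, 4 of 11, each with 0 lower. Nr4a1, an immediate-early nuclear receptor gene, had 4 of 8. These shares stand against 5.49% lower and 4.78% higher over all regions, and the genes were picked for their counts. One Ets1 region, 65.6 kb downstream, passed in the strongest-peak ranks (-36.05 ± 2.20; adjusted p = 0.000174) and had a difference of -26.85 ± 6.95 with all peaks (adjusted p = 0.124).

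The 16 lists of EC and pathway genes were taken with regions within 100 kb of a TSS. By presence with all peaks, at an unadjusted p of at most 0.05, 11 of 92 regions of the artery list (12%) were lower in Aged Sham and 1 higher. The aerocyte list had 8 of 90 lower (8.89%), the basement membrane list 8 of 96 (8.33%), the VEGF and angiopoietin list 8 of 116 (6.9%), the general capillary list 7 of 116 (6.03%), the Notch list 3 of 84 (3.57%) and the AP-1 factor list 1 of 53 (1.89%), each with 0 higher, against 4.71% lower and 0.262% higher of all regions near genes. The vein (3.57% lower), TGF-beta and BMP (3.7%), leukocyte adhesion (5.08%) and SOX, forkhead, KLF, GATA and MEF2 lists (3.66%) also had 0 higher. The innate immunity and interferon (3.39% lower), ETS factor (4.72%), FGF and PDGF (5.26%) and matrix protease lists (0%) each had 1 higher. The oxidative stress and senescence list had 3 of 65 lower (4.62%) and 2 higher. With the strongest peaks 0.894% of all regions near genes were lower and 0.805% higher. The artery (2.17%), VEGF and angiopoietin (1.72%) and AP-1 factor (3.77%) lists each had 2 lower and 0 higher. The Notch list had 0 either way. The general capillary list had 2 lower and 1 higher, and the aerocyte list 1 and 1. The basement membrane list had 1 lower (1.04%) and 3 higher (3.12%), and the FGF and PDGF list 0 and 3 (3.16%). The ETS factor list had 5 lower (3.94%) and 1 higher. By adjusted rank, all 16 lists held few calls. In the general capillary list 1 of 116 regions ranked lower with all peaks and 0 higher, and in the artery list 2 of 92 ranked lower (Bmx and Gja5, the gap junction gene connexin 40) and 1 higher (Mgp, an inhibitor of calcification), against 0.849% lower and 0.321% higher of the 40503 regions near any gene. The VEGF and angiopoietin list had 1 of 116 lower, the Notch list 0 of 84 in either direction, and the list of SOX, forkhead, KLF, GATA and MEF2 factors 0 of 164. Of 127 regions in a list of ETS factors with the haematopoietic and endothelial regulators Tal1, Lyl1 and Lmo2, which are not ETS factors, 3 ranked lower in the strongest-peak ranks, at Ets1, Lmo2 and Lyl1, and 0 higher, while with all peaks 0 ranked lower and 1 higher, at another Lyl1 region. In the strongest-peak ranks 0.368% of all regions near genes were lower and 0.294% higher. The basement membrane list had 2 of 96 lower, both at Col4a3, a collagen IV chain gene of the alveolar basement membrane, and 1 higher, at Col18a1. At the Col4a3 promoter (chr1:82586707-82587291) Young Sham lists held 6.18, 6.15, 6.61, 6.07 and 5.08 and Aged Sham lists none (-19.28 ± 2.94; adjusted p = 0.0223), but none of these peaks was among the strongest. The innate immunity and interferon list had 0 of 59, and the oxidative stress and senescence list 1 of 65 higher, at Trp53. The AP-1 factor list had 0 of 53. The aerocyte list had 2 of 90 lower, both in Nckap5, and 1 higher, at the promoter of Tbx2. The vein list had 1 of 56 lower, in Vwf, the von Willebrand factor gene, where all 5 Young Sham lists and no Aged Sham list held a peak (-29.27 ± 3.15; adjusted p = 0.00475), but none of these peaks was among the strongest, where the difference was 0.13 (adjusted p = 0.337). The TGF-beta and BMP list had 1 of 135 lower, at Id3. The leukocyte adhesion list had 1 of 59 lower, at Nfkbia, and 1 higher, at Tnfaip3. The FGF and PDGF list had 3 of 95 lower, at Fgf10, Fgfr2 and Pdgfa, and 1 higher, at Fgfr3, while the matrix protease list had 0 of 61 with all peaks and 1 lower and 1 higher in the strongest-peak ranks, both at Timp3, an inhibitor of matrix proteases (adjusted p = 0.0156 and 0.0409). Of the all-peak calls named for these lists, those at Id3, Col18a1, Trp53, Tnfaip3, Fgfr3 and Pdgfa also passed in the strongest-peak ranks and the others did not. In the list of genes the study followed, 2 regions within 100 kb ranked lower with all peaks, at Tek and Fgfr2, and 0 higher. The median rank difference over each of these lists was between -2 and 2.78 with all peaks, against 0.11 over all regions near genes.

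Of 20 genes that the study followed in aged ECs, 11 (Plvap, Kit, Cd93, Foxo1, Kdr, Dll4, Sema3g, Cxcl10, Ifit1, Cdkn1a and Pmaip1) had a region overlapping the promoter with a peak in all 9 sham lists, 4 had one with a peak in some lists, and 5 had none. None of these promoter regions passed. That of Tek, the angiopoietin receptor, had a peak in all 5 Young Sham and 3 of 4 Aged Sham lists (-18.88 ± 8.43; adjusted p = 0.213). Aplnr, the apelin receptor gene, had a promoter peak in all 5 Young Sham and 3 of 4 Aged Sham lists (-16.66 ± 9.5; adjusted p = 0.342), and Serpina3n, a serine protease inhibitor gene, in 1 Aged Sham list (13.92 ± 7.31; adjusted p = 0.298). Kdr, the VEGF receptor, differed by -1.85 ± 2.14 (adjusted p = 0.674), Foxo1, a forkhead factor of EC quiescence, by 0.06 ± 1.31 (adjusted p = 0.989), and Cdkn1a, the p21 gene, by 6.29 ± 1.92 (adjusted p = 0.124). Plvap, the diaphragm protein of EC fenestrae, differed by -4.34 ± 1.5 at its promoter (adjusted p = 0.124). In an intron of Tek a region (chr4:94769523-94769943) held 7.07, 8.32, 7.91, 8.01 and 5.92 in Young Sham and no peak in Aged Sham (-28.55 ± 2.97; adjusted p = 0.00401). An intron region of Fgfr2 (chr7:130248404-130248715) likewise had all 5 Young Sham peaks and none in Aged Sham (-21.57 ± 2.79; adjusted p = 0.0114). Neither region's peaks stood among the strongest of any sham list, where the difference was 0.13 percentile points. Beyond 100 kb, a region 102 kb upstream of Kit, the stem cell factor receptor gene (chr5:75472338-75473050), had a peak in all 9 sham lists and ranked lower by both rank rules (-10.82 ± 1.39; adjusted p = 0.011 with all peaks and 0.00618 with the strongest). In bleomycin lungs it differed by -0.49 ± 1.84 (adjusted p = 0.937). A second region, 115 kb upstream of Kit (-28.56 ± 5.14; adjusted p = 0.0441), and one 133 kb from Foxo1 (-21.33 ± 2.69; adjusted p = 0.0104) had peaks in Young Sham alone of the 2 sham groups and did not pass with the strongest peaks (adjusted p = 0.337 for both).

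The age difference was then read in the bleomycin lists, whose samples are in neither sham group. Its p-values came from a limma fit of all 18 lists, so the spread behind them comes partly from the sham lists. Those lists chose the regions, and the choice favours regions with little sham spread, so these p-values are not an independent test. Of the 53 regions called lower by both rank rules, 40 were lower in Aged Bleo than in Young Bleo, against 48.7% of all regions, 16 of them at an unadjusted limma p of at most 0.05, and 0 were higher at that p. Of the 64 called higher, 55 were higher, against 51.3% of all regions, 25 at that p, and 0 were lower at it. Over all regions, 6.25% were lower and 7.5% higher at the same p, and 0.480% and 1.09% at an adjusted p of at most 0.05. Prr9 differed by 60.73 ± 3.04 (SE) in bleomycin lungs (adjusted p = 1.11e-07), Gm5885 by 36.24 ± 5.46 (adjusted p = 0.009), Slit2 by -18.62 ± 2.69 (adjusted p = 0.00683), Ildr2 by -26.43 ± 4.16 (adjusted p = 0.0115) and Fpr2, a formyl peptide receptor gene, by 13 ± 2.2 (adjusted p = 0.018). Of the 81 named regions 15 passed there. Col18a1 (3.28 ± 2.93; adjusted p = 0.662), Pdgfa (1.64 ± 3.43; adjusted p = 0.873) and Pitpnc1 (-12.48 ± 10.39; adjusted p = 0.639) did not pass there. The age difference itself differed between sham and bleomycin lungs at 0.146% of regions. Of the named regions these included Ndufaf5 and Cyb5b, which were named for their loss in sham lungs and have no peak in any bleomycin list, so nothing is read from it. Lanes of the young and aged bleomycin lists also differed, with 1 Young Bleo library on lane 8.

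**Figure D3:**
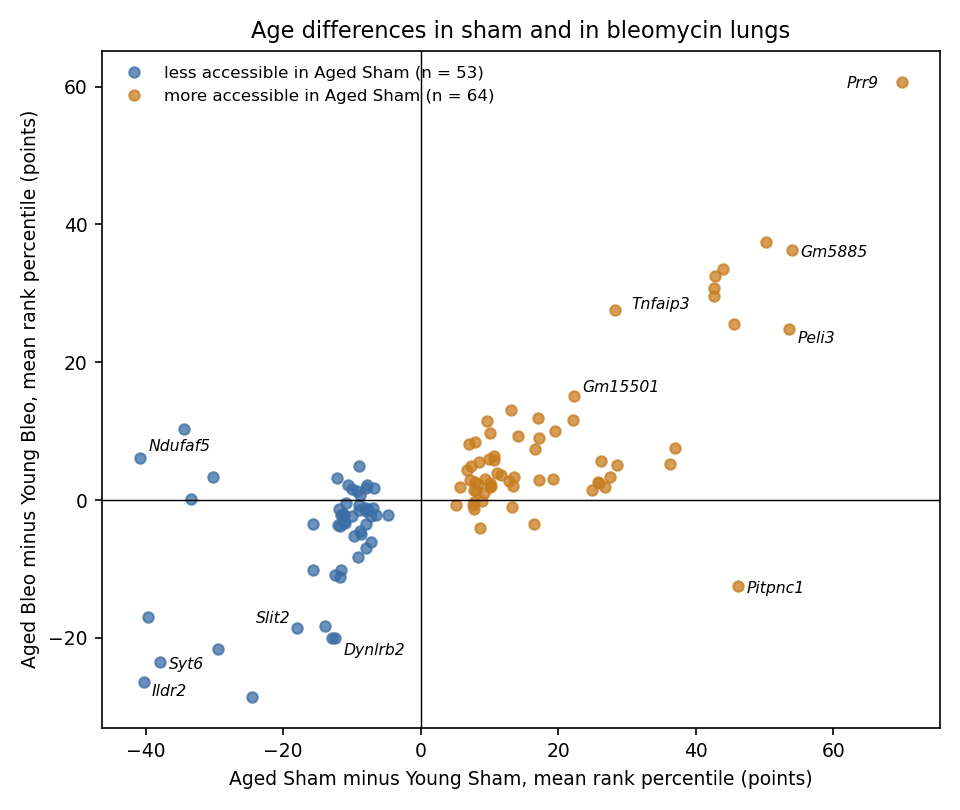
Difference in mean rank percentile between aged and young mice in sham lungs (horizontal axis) and in bleomycin lungs (vertical axis) for the 53 lower and 64 higher regions called by both rank rules; each point is 1 region, and the sham values chose the regions. Of the lower regions 40 lie below zero on the vertical axis, and of the higher regions 55 lie above it, with Prr9 at 69.92 and 60.73.

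Sequence content of the strongest peaks differed little between ages. TGANTCA, the AP-1 motif, lay within 200 bases around the summit in 6.4, 5.89, 6.03, 6.23 and 6.21% of peaks in Young Sham and in 6.53, 7.70, 6.93 and 7.06% in Aged Sham. The means were 6.15% ± 0.196 (SD, n = 5) and 7.06% ± 0.485 (SD, n = 4), and the ages did not overlap (exact permutation test, 2-sided, p = 0.00794; adjusted over the 12 motifs, 0.0317). GGGTGTG, a KLF motif, rose from 6.68% ± 0.126 to 7.26% ± 0.215 and GGGACTTTC, an NF-kB motif, from 0.307% ± 0.0133 to 0.358% ± 0.0288, both at the same exact p. TGTTTAC, the forkhead motif, fell from 4.16, 4.22, 4.05, 4.22 and 3.93% to 3.74, 3.82, 3.85 and 3.69% (exact p = 0.0159; adjusted 0.0476). CAGGAAG, the ETS core, was in 18.0% ± 0.387 and 17.6% ± 0.590 (exact p = 0.317; adjusted 0.544). Promoters made up 45.5% ± 0.335 and 46.3% ± 0.703 of the strongest peaks, with overlapping ranges (exact p = 0.0714). With any 1 list left out the 4 motifs had adjusted p of 0.0536 to 0.107, where the smallest exact p is 0.0179 or 0.0286, which adjusts to 0.0536 or 0.0857 with 4 of 12 motifs at it. The AP-1 difference then was 0.69 to 1.08 percentage points, against 0.90 with all lists. In bleomycin lungs the AP-1 share was 7.14% ± 0.384 in Young Bleo and 7.32% ± 1.15 in Aged Bleo (exact p = 0.81). Young Bleo replicate 4, on lane 8 as all Young Sham, had 6.63%, and replicates 1 to 3, on lane 7, had 7.55, 7.25 and 7.11%. Its KLF share was also the lowest of Young Bleo (6.60% against 7.33, 7.35 and 7.21%). Its forkhead share was not (3.45% against 3.42, 3.37 and 3.52%). A part of the lane in these shares was not tested. The forkhead share was 3.44% ± 0.0601 and 3.59% ± 0.144, higher by 0.15 in Aged Bleo (exact p = 0.0873), the opposite direction to sham lungs. No motif passed adjustment there. Over all 47338 regions TGANTCA occurred in 8.55%, and in 5.73% of those with a strongest peak in all 9 sham lists, against 15 of 64 (23.4%) of those called higher and 5 of 53 (9.43%) of those called lower by both rank rules. By both presence rules it occurred in 2 of 20 (10%) of the higher and 0 of 50 of the lower regions.

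**Figure D4:**
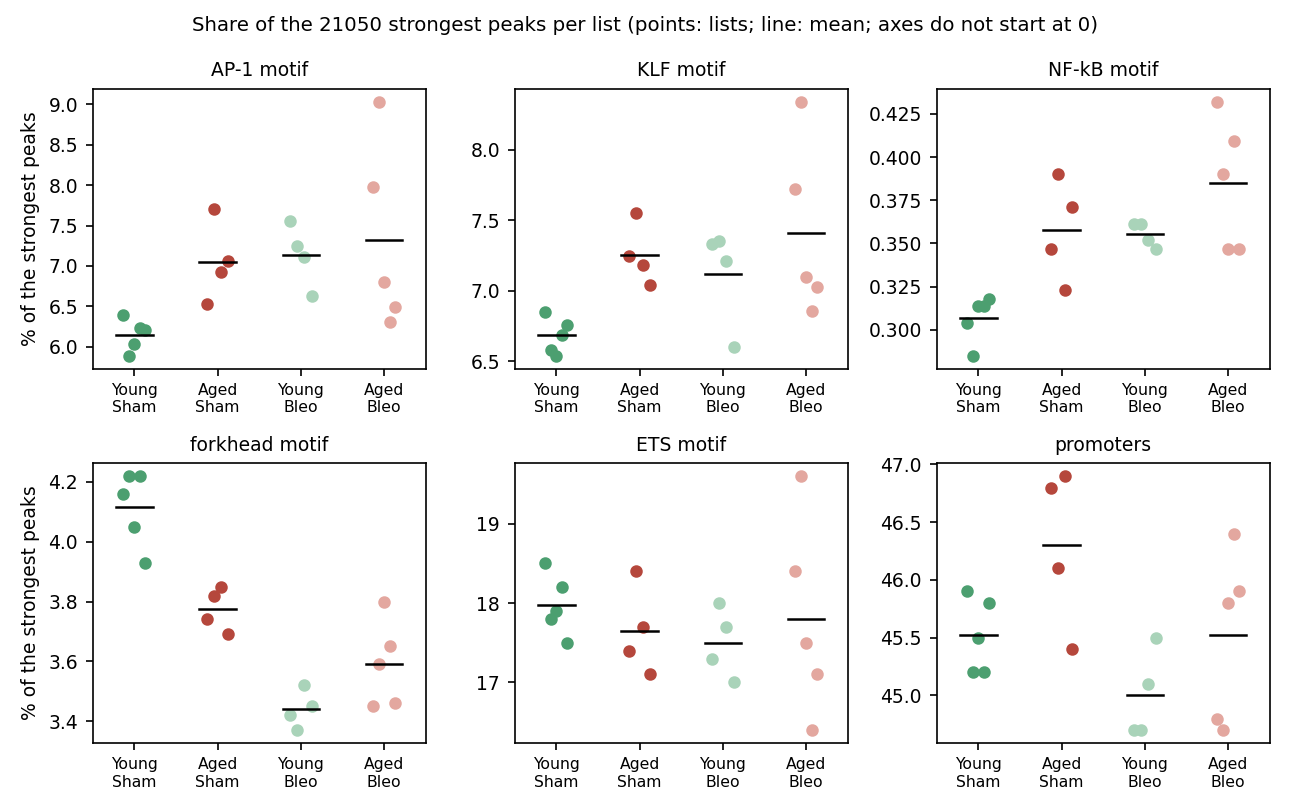
Percent of each list's strongest peaks with the named motif within 200 bases around the summit, or in a promoter; each point is 1 list, the line is the group mean, and the axes do not start at 0. The AP-1, KLF and NF-kB shares of the 4 Aged Sham lists lie above all 5 Young Sham lists and the forkhead shares below them, while the AP-1 shares of Aged Bleo lists spread across those of Young Bleo.

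Calls were uneven among chromosomes. Chromosome 11 holds 3350 regions (7.08%), and of the regions called by both rank rules it held 12 of 64 higher ones (18.8%), Sfi1, Trp53, Npepps, Pitpnc1 and Socs3 among them, and 0 of 53 lower ones. In the strongest-peak presence calls it held 58 of 384 higher and 10 of 434 lower ones. Chromosome 11 took 7.26, 7.01, 7.07, 7.18 and 6.85% of the strongest peaks in Young Sham and 7.97, 8.01, 7.25 and 7.76% in Aged Sham. The means were 7.07% ± 0.159 and 7.75% ± 0.350 (exact permutation p = 0.0159), Aged Sham replicate 3 lay within the Young Sham range, and the difference did not pass adjustment over the 21 chromosomes (0.111), nor did that of any other chromosome. The share of chromosome 3 was 5.15 to 5.4% in Young Sham and 4.91 to 5.11% in Aged Sham, without overlap (exact permutation p = 0.00794; adjusted 0.111), and chromosome 7, with 6.19% of regions, held 26 of the 182 lower calls (14.3%) in the strongest-peak ranks. In bleomycin lungs the shares of chromosome 11 were 7.29% ± 0.2 and 7.83% ± 0.281 (exact p = 0.0238; adjusted 0.167). The mean rank difference over the regions of chromosome 11 was 2.20 in sham and 1.76 in bleomycin lungs. By windows of 10 Mb along chromosome 11 it lay between -1.18 and 1.12 in sham lungs up to 50 Mb and between 1.94 and 3.48 beyond. This comparison was chosen after the values were seen. GC content and promoter share of the chromosome 11 regions (54.4% and 26.4%) were above those of all regions (51.8% and 21.3%), and their part in the shift was not tested.

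**Figure D5:**
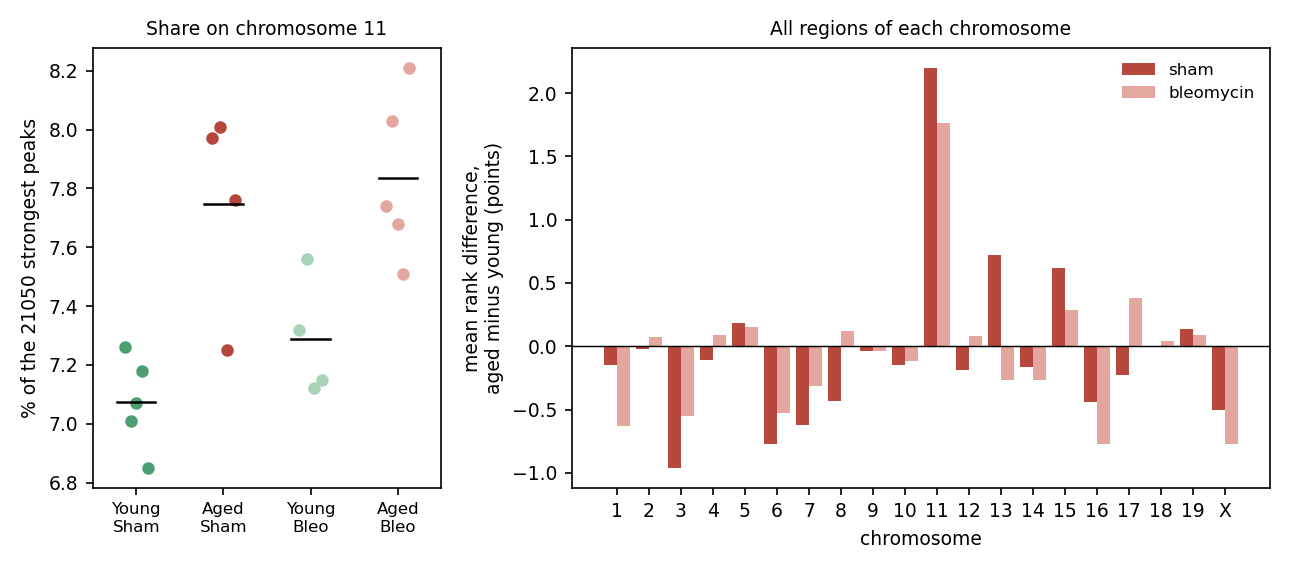
Left, percent of each list's strongest peaks on chromosome 11, with 1 point per list, the group mean as a line and an axis that does not start at 0. Right, mean rank difference between aged and young mice over all regions of each chromosome except Y, in sham and in bleomycin lungs; chromosome 11 stands at 2.20 and 1.76.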

How the data were processed

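ATAC-seq peaks were measured in sorted lung ECs of 18 mice. The authors mapped read pairs to mm10 with BWA, removed those mapping to several places and duplicates, and called peaks per sample with MACS2 at a false discovery rate of 1%. The deposited lists give each peak's fold enrichment over background (a ratio), its -log10 p-value and its -log10 q-value, all set by MACS2 without normalization between samples, and no read counts, so the authors' read-count comparison could not be repeated and the depth of the libraries is unknown. Peaks on chromosomes 1 to 19, X and Y overlapping by at least 1 bp were merged, and regions with a peak in at least 2 lists were kept. Absence of a call does not show closed chromatin. Presence was tested with Fisher's exact test (scipy 1.17.1) and ranks of the -log10 p with limma 3.58.1 in R 4.3.3, with Benjamini-Hochberg adjustment over all 47338 regions; shares per list were compared by enumerating every split of the 9 lists. The bleomycin and interaction values came from a limma fit of all 18 lists. An uncalled region had a shared rank of 11.1 to 19.2% in Young Sham and 17.2 to 23.7% in Aged Sham lists (27.9 to 28.3% with the strongest peaks), which sets the size of differences at regions with no peak. A promoter was the stretch between 1000 bp before and 100 bp after a RefSeq TSS, and regions were named by the nearest protein-coding TSS. Named were the 12 regions per direction with the largest rank difference among those called by both presence rules, list genes called by both presence rules, the 5 promoters per direction with the smallest strongest-peak limma p, the 8 genes per direction with the most regions, genes the study named, and, chosen after their values were seen, list genes called by both rank rules and the 8 regions per direction with the largest difference among those called by both rank rules with a peak among the strongest of all 9 lists. Members, lists and tests were chosen with earlier results of these data known. The tests were tried on simulated data. P-values measure spread between lists from mice of 1 strain. Where a group has no peak, its spread is only that of the shared rank, which list length sets. With the strongest peaks that spread is close to none, so the small p-values at such regions do not measure differences between mice. Results of 1 further gene list are not reported here. Alternatives are given at the end.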

Additional observations from a re-analysis of the deposited data

Results flagged for a closer look

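At Hs3st1, Young Sham replicate 1 had a rank percentile of 49.1, far from the other 4 Young Sham lists, the nearest of which stood at 19.1. At BC029722 the same list stood at 41.7, with the nearest other list at 19.1. In both cases it was the only Young Sham list with a peak there. At Bicd2, Aged Sham replicate 4 had 41.5 and the nearest other Aged Sham list 60.7, and at Asb8, Aged Sham replicate 3 had 57.2 and the nearest 62.2. The share of strongest peaks with TGTGGT, a RUNX motif, was 9.17% in Young Sham replicate 3, and 9.34% in the nearest other Young Sham list. These were the 5 outlying samples in 94 groups examined, and chance alone gives about 1 in 20 groups.

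The age difference in sham lungs at Ndufaf5 (the Sel1l2 intron) minus that in bleomycin lungs was -46.83 percentile points, and that at Cyb5b -43.9. Both regions carried a peak in all 5 Young Sham lists and in no other list, and were named for that loss. Their difference of 6.09 in bleomycin lungs is that between the shared ranks of uncalled regions, so these values describe how the regions were chosen and are no test.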

How the results depend on the processing

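The counts depended on how uncalled regions and list length entered. With all peaks, the 431 lower and 151 higher regions became 2509 and 64 with uncalled regions set to 0, 190 and 42 with the number of peaks as a covariate, and 4019 and 7713 at an unadjusted p of at most 0.05. A fit of all 18 samples gave 249 higher. With the strongest peaks, the 182 lower and 132 higher became 113 and 81 with uncalled regions set to 0, 92 and 77 with the covariate, 276 and 274 with all 18 samples, and 2597 and 2262 unadjusted. Ranks of fold enrichment gave 114 lower. With only regions that had a peak in a sham list, a choice made after seeing the data, they became 275 and 222. Presence calls on the strongest peaks became 688 lower and 246 higher where peaks had to cover at least 50% of a region. Of the 49 named regions called with all peaks, 26 lost their call with the covariate, 15 with uncalled regions set to 0, 14 with all 18 samples, 12 with ranks of fold enrichment, 16 with the strongest peaks and 49 under the replicate block. With the covariate they included Syt6, Nckap5, Bmx, Id3, Pdgfa, Efnb2, Pitpnc1, Bdnf, Tnfaip3, Fgfr3, Col18a1, Gm15501, Bid and Trp53 (adjusted p = 0.0535 to 0.224). With all 18 samples they included Rgs18, Efnb2, Tpra1 and Mical1 (limma adjusted p = 0.0573, 0.153, 0.405 and 0.131). The Tek and Fgfr2 introns were also among them (0.0751 and 0.0994), and in that fit the differences stayed at 100% of their size. With uncalled regions set to 0 they included Kcnip3 (0.0755) and Mical1 (0.109). With ranks of fold enrichment they included Tpra1 (0.052). The differences that lost their call stayed at a median of 101% of their size with the covariate and at 92.7 to 108% under the block, and fell to a median of 82.5% with uncalled regions set to 0 and 65.6% with the strongest peaks. Of the named regions, 15 passed in bleomycin lungs with all peaks and 8 with the strongest. The cause of these shifts was not tested.

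Leaving out 1 list gave 518 to 997 lower and 20 to 51 higher regions by presence with all peaks, and 91 to 132 and 72 to 138 with the strongest, where fewer lists limit the smallest p. Rank calls with all peaks were 313 to 563 and 95 to 176. With the strongest peaks they were 128 to 2002 and 107 to 21180. The highest counts came without Aged Sham replicate 4, where 19778 of the 21180 regions had no peak among the strongest of any remaining list, and the other omissions gave at most 254 and 207.

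Promoter shares differed by 5.68 percentage points with all peaks (exact p = 0.0476) and by 1.15 with promoters of 2 kb on either side (exact p = 0.0159), and by 0.59 to 1.08 with 1 list left out. TGANTCA differed by 0.68 with all peaks and 0.41 with the 10000 strongest, TGTTTAC by -0.35 and -0.39, GGGTGTG by 0.44 and 0.16, and GGGACTTTC by 0.05 and 0.04, none past adjustment (0.0635 to 0.357). With 1 list left out these differed by 0.69 to 1.08, -0.39 to -0.31, 0.47 to 0.64 and 0.04 to 0.06. In a 400 bp window GGGCGG (1.37) and TGTGGT (-0.18) passed. The sign changed for AGATAA in that window (0.00) and from -0.23 to 0.09 with 1 list left out. It changed for GGAATG with all peaks (-0.17) and in that window (-0.03), for AGGGGGC with all peaks (0.04), and for GAAANNGAA with all peaks (-0.22), in that window (-0.10), under the block (-0.05) and from -0.05 to 0.08 with 1 list left out. The Tek and Fgfr2 introns moved to 0.13 with the strongest peaks.

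Replicate numbers did not pair the samples: deviations of same-numbered lists correlated at -0.0128 to 0.0226, and 0 Aged Sham lists correlated best with their own number. With the replicate block 0 regions passed with all peaks in either direction, and 123 lower and 88 higher passed with the strongest peaks. Under that pairing TGANTCA differed by 0.92, TGTTTAC by -0.39, GGGTGTG by 0.59 and GGGACTTTC by 0.05, each at an exact p of 0.125, the smallest that 4 pairs allow.

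A missing peak is not closed chromatin, the depth of the libraries is unknown, and age and lane cannot be told apart.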
